A study of Mus musculus with 9 samples.

Results

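The CXC chemokine ligands measured here are 9 genes, Cxcl1, Cxcl2, Cxcl3, Cxcl9, Cxcl10, Cxcl11, Cxcl12, Cxcl13 and Cxcl14, picked by name from the 53801 genes counted in each library and matched by their Ensembl identifiers. Monocytes/macrophages sorted as CD11c-Ly6G-CD11b+CD45high were sequenced from male C57BL/6J mice, 9 weeks old, after sham surgery or after dMCAO, in which the common carotid artery and the distal part of the middle cerebral artery were closed for good on the left side. The 3 groups held 3 libraries each: sham blood and stroke blood, with 1 mouse per library, and stroke brain, with cells of the ipsilesional hemisphere pooled from 5 mice per library. Stroke samples were taken 5 days after dMCAO, and the day of the sham samples is not given in the sources used here. No library came from a sham brain, so the brain as a tissue and the lesion cannot be told apart in any comparison, and blood cells did not go through the dissociation of brain tissue. The gate cannot separate microglia with raised CD45 from macrophages derived from monocytes.

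CXC chemokines are small secreted proteins named after a pair of cysteines separated by another residue, and they guide leukocytes through G protein-coupled receptors. Cxcl1, Cxcl2 and Cxcl3 act mainly on CXCR2 and recruit neutrophils, and their transcription is a textbook target of NF-kappaB. Cxcl9, Cxcl10 and Cxcl11 are induced by interferons and attract activated T cells and NK cells through CXCR3, Cxcl12 retains and guides CXCR4+ cells, Cxcl13 attracts CXCR5+ B cells, and the receptor of Cxcl14 is less settled. In the ischemic brain, chemokines made by microglia, macrophages and other cells take part in bringing further leukocytes into the tissue.

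Among the 4 ligands also found in blood monocytes, 3 were upregulated differentially expressed genes (DEGs) in brain macrophages after stroke: Cxcl2, Cxcl9 and Cxcl10. Cxcl1 did not pass. In the same comparison with stroke blood 13.1% of all genes tested were upregulated. Cxcl3, Cxcl11 and Cxcl14 were at or near 0 in blood and present in each brain library. None of the 4 that could be tested was a DEG between stroke blood and sham blood. Cxcl2 and Cxcl10 carried most of the transcripts of these 9 ligands in each of the 9 libraries. Cxcl12 and Cxcl13 were each found almost wholly in a single brain library.

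The genes lie in few places. On chromosome 5 of GRCm38, Cxcl3 (90786103 to 90789600), Cxcl1 (90891241 to 90893115) and Cxcl2 (90903871 to 90905938) lie on the plus strand within 119.8 kb. Cxcl9 (92321347 to 92328079), Cxcl10 (92346638 to 92348889) and Cxcl11 (92359544 to 92365485) lie on the minus strand of the same chromosome within 44.1 kb. Cxcl13 is also on chromosome 5 (95956951 to 95961068, plus strand), Cxcl12 is on chromosome 6 (117168535 to 117181367, plus strand) and Cxcl14 on chromosome 13 (56288643 to 56296551, minus strand). The counts are over exons, and each gene has transcripts of between 3 and 5 exons.

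The bases just before the starts of the ligands are shown. Cxcl2 and Cxcl3, which were higher in the brain, lie on either side of Cxcl1, which did not pass the test. Cxcl9 and Cxcl10, both upregulated in the brain, are neighbors. RefSeq promoters on GRCm38.p6 were matched for 8 of the 9 genes, without Cxcl11. Within 250 bases before the start, on both strands, 3 motifs were searched: the NF-kappaB consensus, the interferon-stimulated response element (ISRE, GAAANNGAA) and the gamma-activated site (GAS, TTCNNNGAA), where N is any base. The stretches are written 5′ to 3′ on the strand of the gene, with the matched letters in capitals.

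Cxcl1: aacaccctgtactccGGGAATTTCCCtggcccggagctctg
Cxcl2: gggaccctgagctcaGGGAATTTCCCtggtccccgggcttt
Cxcl3: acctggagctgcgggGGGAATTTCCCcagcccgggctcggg
Cxcl9: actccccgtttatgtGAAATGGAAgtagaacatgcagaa
Cxcl10: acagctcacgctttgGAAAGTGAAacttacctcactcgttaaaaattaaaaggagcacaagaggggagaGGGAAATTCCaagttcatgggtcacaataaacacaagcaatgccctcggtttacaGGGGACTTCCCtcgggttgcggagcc
Cxcl14: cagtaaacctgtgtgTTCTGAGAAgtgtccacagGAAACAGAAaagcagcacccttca

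The same 11 letters, GGGAATTTCCC, stood in 3 of the promoters: from 71 to 61 bases before the start in Cxcl1 (stretch chr5:90891159-90891199, plus strand), from 97 to 87 in Cxcl2 (chr5:90903787-90903827, plus) and from 73 to 63 in Cxcl3 (chr5:90786013-90786053, plus). These 11 letters hold a pair of overlapping NF-kappaB matches, 1 on each strand. Cxcl10 (chr5:92348968-92349117, minus) held an ISRE match, GAAAGTGAA, from 213 to 205 bases before its start, and NF-kappaB matches in GGGAAATTCC, from 159 to 150, and in GGGGACTTCCC, from 104 to 94. The ISRE match of Cxcl9 (chr5:92328231-92328269, minus) was at 175 to 167. Cxcl14 (chr13:56296700-56296757, minus) held a GAS match, TTCTGAGAA, at 191 to 183 and an ISRE match at 172 to 164, and Cxcl12 and Cxcl13 held no match to any of the 3.

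By promoter, the NF-kappaB consensus matched in 4 of the 8 ligands, against 7.25% of the 32851 promoters of the table. In 3 of these, Cxcl1, Cxcl2 and Cxcl3, the match is the same 11 letters in genes of 1 cluster, so the 4 are not independent. The ISRE matched in 3 of 8, against 7.13%, and the GAS in 1 of 8, against 7.02%. A match says only that the letters are present, and binding was not measured in these data.

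Total counts were between 18475118 and 22623578 per library, so that 3 counts, taken as the floor of detection, equaled 0.133 to 0.162 counts per 1000000 counts of the library (CPM). The markers of the sorted cells, Itgam, Ptprc, Csf1r, Lyz2, Ly6c2 and Ccr2, were present in all 9 libraries. Their summed level was 88010 to 123700 CPM in sham blood, 96750 to 107800 in stroke blood and 45020 to 50050 in the brain. Most of this sum was Lyz2, at a mean of 96450, 92240 and 40890 CPM in the same groups. Lyz2 and Ly6c2 were downregulated DEGs in the brain against stroke blood, and the other 4 were not DEGs. All 6 microglia markers were upregulated in the brain, from a sum of 126 to 197 CPM in stroke blood to 1135, 1609 and 2930 in brain libraries 1, 2 and 3. Sall1 and Siglech had no count in stroke blood and Sparc at most 9, so these passed the filter through their brain counts alone. In such bulk samples, fewer cells of a type and less RNA per cell cannot be told apart. Ly6g, the gene of the excluded neutrophil marker, had at most 14 counts in any library. Of the other 6 neutrophil markers, however, the granule and S100 genes S100a8, S100a9, Camp, Ltf and Ngp were upregulated in the brain over stroke blood. Their log2 fold changes were 2.26 to 5.26, and Mmp8 was downregulated. Camp, Ltf and Ngp had 0 counts in stroke blood library 1 and at most 15 in library 2, and passed the filter through their brain counts. Over sham blood only Camp and Ngp of these genes were upregulated. S100a8 was at 956 CPM in sham blood library 3, against 60.1 to 255 in the brain. Against stroke blood, S100a8 did not pass without stroke blood library 1 (edgeR adjusted p = 0.0552). Ngp did not pass against stroke blood without stroke blood library 2 (edgeR adjusted p = 0.0543). Of the border-associated macrophage markers, Mrc1 (2.81) and Cd163 (2.28) were upregulated, Lyve1 was at least 44.4-fold higher and was not tested, and Siglec1 (-0.82) did not pass. F13a1 was downregulated (-1.06), but not without stroke blood library 2 (-0.84) or brain library 2 (-0.99), and Siglec1 passed without stroke blood library 1 (-1.18). The part of these cells in the ligand results was not tested.

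The question of the main comparison is how blood monocytes and the macrophages found in the brain differ after stroke. DEGs were called with edgeR's quasi-likelihood test at a fold change above 2 in either direction and a Benjamini-Hochberg adjusted p below 0.05 over all genes tested. By this rule 2771 of 13189 genes (21.0%) were DEGs between stroke brain and stroke blood, and 13.1% were upregulated in the brain. A filter on low counts left out Cxcl12 and Cxcl13 and kept 7 ligands, among them Cxcl3, Cxcl11 and Cxcl14, which passed through their brain counts alone. Since these 3 had to be high in the brain to be tested, they are given below as values only. Of the other 4, Cxcl2, Cxcl9 and Cxcl10 were upregulated and Cxcl1 did not pass, with a median log2 fold change of 1.96 over the 4, against 0.06 over all genes tested. For the same 3 of 4 every brain library was above every stroke blood library, which held for 31.9% of the genes tested.

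**Figure D1:**
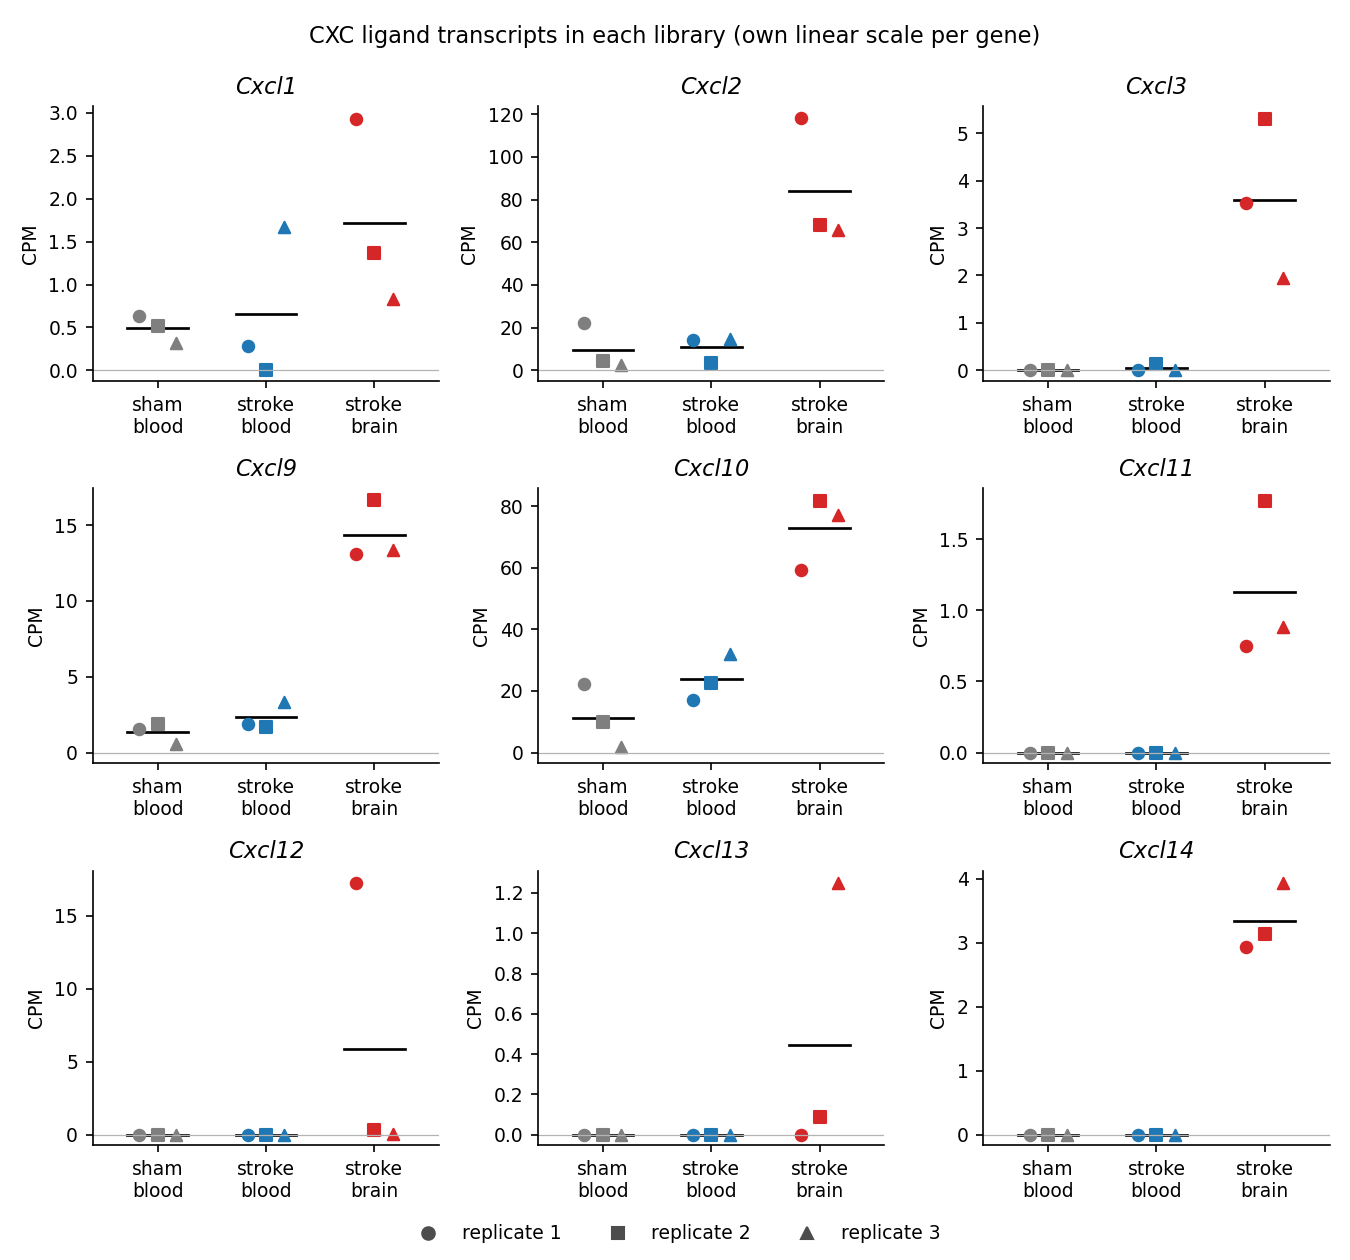
CPM of the 9 CXC ligands (y axis, linear and separate for each gene) in the 3 libraries of sham blood, stroke blood and stroke brain (x axis), with the symbol giving the replicate and the black line the group mean. The 3 brain libraries lie above all blood libraries for Cxcl2, Cxcl3, Cxcl9, Cxcl10, Cxcl11 and Cxcl14, while Cxcl12 and Cxcl13 rest on 1 brain library each.

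Of Cxcl1, Cxcl2 and Cxcl3, Cxcl2, a strong neutrophil attractant also called MIP-2, was the most abundant in CPM. Its level was 22.2, 4.18 and 2.49 CPM in sham blood libraries 1, 2 and 3 and 14.1, 3.48 and 14.6 in stroke blood. In the brain it was 118, 67.9 and 65.6 CPM. Every brain value was above every blood value, and the lowest brain library was several times the highest of stroke blood. The log2 fold change between brain and stroke blood was 2.80 ± 0.49 (SE), with an adjusted p of 0.0028 by edgeR. With any library left out the estimate ranged from 2.33 to 3.07.

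Cxcl3, the closest relative of Cxcl2, had no count in sham blood and 0, 3 and 0 counts in stroke blood, against 66, 120 and 42 counts in the brain (3.59 ± 1.68 CPM, SD, n = 3). Blood was at or below the floor in each library, so the change is given as a bound. Brain Cxcl3 was higher by at least 24.2-fold. Reads of Cxcl2 and Cxcl3 can be confused over a small stretch, since 101 of the 75-base windows of their transcripts were identical, 4.57% of those of Cxcl2 and 2.78% of those of Cxcl3.

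Cxcl1, also known as KC, was the only ligand tested in this comparison that was not called. Its counts were 13, 11 and 6 in sham blood, 6, 0 and 31 in stroke blood and 55, 31 and 18 in the brain. Stroke blood library 3, at 1.67 CPM, lay above brain libraries 2 and 3, at 1.37 and 0.833 CPM, so the groups overlapped. The log2 fold change of 1.22 ± 1.10 (SE) did not pass (edgeR adjusted p = 0.432), and it did not pass in any of the 6 fits with a library left out either, where it was 0.57 to 3.34, the highest without stroke blood library 3 (adjusted p = 0.0985). The difference between Cxcl1 and Cxcl2 in their fold changes was not tested.

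Cxcl10, or IP-10, was the most abundant of the CXCR3 ligands. It measured 22.4, 9.82 and 1.73 CPM in sham blood, 17.2, 22.5 and 32.1 in stroke blood and 59.4, 81.8 and 77.1 in the brain. The brain values were again all above the blood values, with a smaller gap than for Cxcl2. Its log2 fold change between brain and stroke blood was 1.45 ± 0.26 (SE; edgeR adjusted p = 0.00322) and 1.21 to 1.71 with a library left out. When all 9 libraries shared 1 fit, and so 1 estimate of the spread, it was 1.41 and did not pass (edgeR adjusted p = 0.103).

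Cxcl9, or MIG, the ligand most tied to interferon gamma, was at 1.56, 1.88 and 0.595 CPM in sham blood and 1.88, 1.72 and 3.35 in stroke blood. It reached 13.1, 16.6 and 13.3 CPM in the brain (14.3 ± 1.98, SD, n = 3). Brain and blood did not overlap, and the log2 fold change over stroke blood was 2.47 ± 0.35 (SE; edgeR adjusted p = 0.00104).

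Cxcl11, or I-TAC, for which C57BL/6 mice are known not to make a functional protein, had no count in any blood library. The brain libraries held 14, 40 and 19 counts (1.13 ± 0.556 CPM, SD, n = 3), at least 7.61-fold above stroke blood. These counts are uncertain: 1582 bases of its exons are shared with Gm2673, a processed pseudogene on the opposite strand, and 39.8% of its 75-base windows occur there, while the strand setting of the counting is not given in the sources used here. For Cxcl10 the same check found 133 shared exon bases with Art3 and 2.47% of its windows.

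Cxcl14, also named BRAK, was at 0 in all 6 blood libraries and had 55, 71 and 85 counts in the brain. At 2.93, 3.14 and 3.93 CPM the brain libraries were close to each other (3.33 ± 0.528, SD, n = 3). This was at least 22.4-fold above stroke blood. The summed microglia markers had the same order over the brain libraries as Cxcl14, with 1135, 1609 and 2930 CPM, as did 3 of the 6 markers taken singly. Sall1, a defining microglia gene that did not keep this order, was at 0 in blood and at 7.30, 6.63 and 21.8 CPM in the brain. The order of Cxcl14 was not particular to microglia. The summed markers of T and NK cells (568, 1121 and 1152 CPM) and of the sorted cells (45020, 47870 and 50050) had it too. So did Mrc1 (32.4, 67.5 and 91.0) and Cd163 (7.04, 18.1 and 21.3). The summed markers of border-associated macrophages (1144, 1044 and 1249) did not. The part of microglia or of other cells in the Cxcl14 counts was not tested.

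Cxcl12, or SDF-1, usually a product of stromal and vascular cells, had no count in blood and 323, 8 and 1 counts in brain libraries 1, 2 and 3, or 17.2, 0.354 and 0.0463 CPM. Nearly all of it came from brain library 1, and library 3 was below the floor. The summed level of the 4 fibroblast and pericyte markers (Pdgfrb, Col1a1, Dcn and Lum) was 236, 8.49 and 1.62 CPM in the same libraries, against 0.648 to 1.74 in stroke blood and 1.41 to 3.01 in sham blood. Col1a1, the collagen gene of fibroblasts, gave 4204, 20 and 0 counts, and Dcn 89, 95 and 0. The part of such cells in the Cxcl12 counts was not tested. Cxcl12 was left out by the filter, and without the filter its edgeR adjusted p was 0.00254, while DESeq2 gave no adjusted p.

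Cxcl13, or BLC, had no count in blood and 0, 2 and 27 counts in brain libraries 1, 2 and 3, so only library 3, at 1.25 CPM, was above the floor. Without the filter it did not pass (edgeR adjusted p = 0.0592, DESeq2 adjusted p = 0.0926). The markers of B cells, which bear its receptor, summed to 33.7, 18.7 and 48.1 CPM in the 3 brain libraries and to 24.7 to 59.5 in stroke blood. Brain library 3 also held the most microglia marker signal, and the part of either cell type was not tested.

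**Figure D2:**
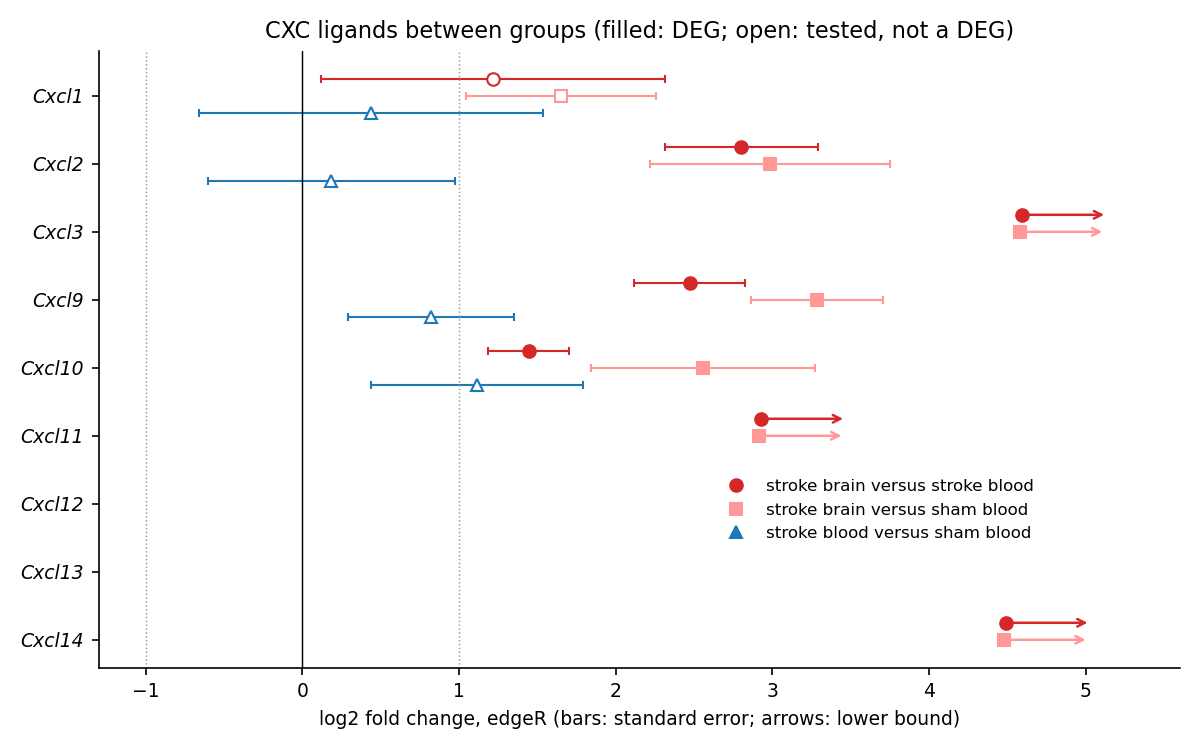
Log2 fold changes of the ligands (x axis; dotted lines at a change of 2-fold) in the 3 comparisons, with bars for the standard error, filled symbols for DEGs and arrows for lower bounds where all libraries of a group had 3 counts or fewer. All filled symbols are to the right of the line in both brain comparisons. Those of Cxcl3, Cxcl11 and Cxcl14 are lower bounds, for genes tested through their brain counts alone. The 4 values of stroke blood versus sham blood are open. Cxcl12 and Cxcl13 were not tested.

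Compared per length, as counts per kilobase of exon scaled to 1000000 in each library, the family was led by Cxcl2 and Cxcl10 in the brain. The mean brain level per length was 108 ± 39.7 for Cxcl2 and 86.0 ± 13.2 for Cxcl10 (SD, n = 3), followed by Cxcl9 at 12.7 ± 1.72 and Cxcl14 at 4.86 ± 0.715. Cxcl3 (2.74 ± 1.28), Cxcl1 (2.45 ± 1.59), Cxcl12 (1.94 ± 3.25), Cxcl13 (1.02 ± 1.60) and Cxcl11 (0.793 ± 0.387) came below. In this order Cxcl10 and Cxcl9, Cxcl9 and Cxcl14, and Cxcl14 and Cxcl3 had ranges that did not overlap. Cxcl2 and Cxcl10 overlapped, and so did each neighboring pair from Cxcl3 downward.

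The ratio of Cxcl10 to Cxcl2 per length was 0.462, 1.11 and 1.08 in brain libraries 1, 2 and 3. It was 1.12, 5.95 and 2.02 in stroke blood and 0.926, 2.16 and 0.639 in sham blood. Cxcl10 therefore led in stroke blood in all 3 libraries, and in the brain only in libraries 2 and 3. The ratio depends on the length used: with the longest coding transcript of each gene in place of all exons, an alternative added after seeing the data, it was 0.691, 1.65 and 1.61 in the brain.

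Together Cxcl2 and Cxcl10 made up 87.3% to 88.5% of the level per length of the 9 ligands in the brain and 84.2% to 96.0% in blood. The summed level of the 9 ligands was 165 to 218 CPM in the brain (187 ± 27.5, SD, n = 3), 27.9 to 51.8 in stroke blood (37.7 ± 12.5) and 5.14 to 46.8 in sham blood (22.8 ± 21.5). Each brain library had 8 of the 9 ligands above the floor, and the blood libraries 3 or 4. The summed level and the number of ligands above the floor were thus higher in each brain library than in any blood library. Of the ligands shared with blood, Cxcl1 did not pass against stroke blood. The number above the floor includes Cxcl12 or Cxcl13 in each brain library, and the uncertain Cxcl11. Over all genes, 18010 to 18392 had any count in the brain libraries, and 17610 to 18612 in the blood libraries.

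**Figure D3:**
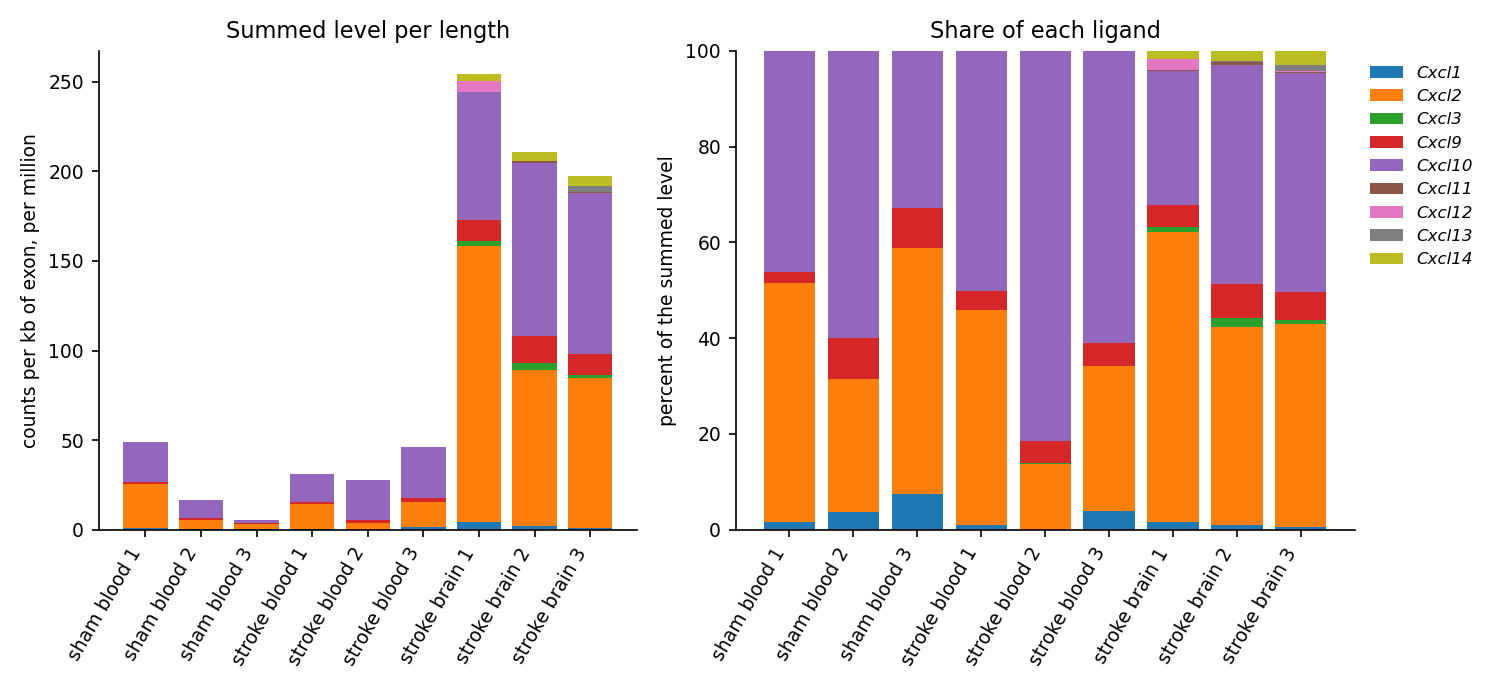
Level of the 9 ligands per length in each library, summed (left, counts per kilobase of exon, scaled to 1000000 per library) and as a percent of that sum (right), stacked by gene. The 3 brain columns are the tallest on the left, and on the right Cxcl2 and Cxcl10 fill most of each column, from 84.2% to 96.0%.

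Blood monocytes after stroke were set against those after sham surgery to ask whether the ligands changed before the cells entered the brain. Only 1 of 12664 genes was a DEG (0.0079%), whereas 1581 had an unadjusted p below 0.05. Of the ligands, 4 passed the filter (Cxcl1, Cxcl2, Cxcl9 and Cxcl10) and 0 were DEGs with edgeR or DESeq2, and 0 had an unadjusted p below 0.05. Cxcl10 had the largest estimate, a log2 fold change of 1.11 ± 0.68 (SE; edgeR adjusted p = 0.514), and sham blood library 1, at 22.4 CPM, lay above stroke blood library 1, at 17.2 CPM. Cxcl9 was estimated at 0.82 ± 0.53 (SE; adjusted p = 0.541) and Cxcl2 at 0.19 ± 0.79 (SE; adjusted p = 0.935). The Cxcl1 estimate of 0.44 ± 1.10 (SE; adjusted p = 0.884) changed sign without stroke blood library 3 (-1.73). The sign of the Cxcl2 estimate also changed in 4 of the 6 fits with a library left out, from -0.27 without sham blood library 3 to 1.73 without sham blood library 1.

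Cxcl2 and Cxcl10 varied more among the sham blood libraries (SD of 10.9 and 10.4 CPM, n = 3) than among those of stroke blood (6.29 and 7.57), whereas Cxcl1 and Cxcl9 varied more in stroke blood. Sham blood library 1 had the highest sham level of Cxcl2 (22.2 CPM) and Cxcl10 (22.4), and library 3 the lowest of both (2.49 and 1.73). Tnf was also highest in library 1, at 27.4, 1.69 and 2.22 CPM in libraries 1, 2 and 3, and so was Zfp36, at 1360, 623 and 412. Platelet markers were lowest in that library, summing to 5.94, 185 and 276 CPM.

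Stroke brain was also compared with sham blood, with the same brain libraries as in the first comparison. By the same rule 13.4% of 13020 genes were DEGs and 9.75% were upregulated in the brain. Cxcl3, Cxcl11 and Cxcl14, at 0 in all sham blood libraries, again passed the filter through their brain counts alone. Of the other 4 ligands tested, Cxcl2, Cxcl9 and Cxcl10 were upregulated, with a median log2 fold change of 2.77 over the 4, against 0.01 over all genes. Cxcl9 was higher by 3.29 ± 0.42 (SE; edgeR adjusted p = 0.00277). Cxcl3 was at least 24.0-fold, Cxcl14 at least 22.3-fold and Cxcl11 at least 7.55-fold above sham blood. Cxcl1 was at 1.65 ± 0.61 (SE; adjusted p = 0.0947), and its groups did not overlap.

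Cxcl2 and Cxcl10 were less firm against sham blood than against stroke blood. Cxcl2 was higher by 2.99 ± 0.76 (SE; edgeR adjusted p = 0.0311) and kept its call in 1 of the 6 fits with a library left out, the one without sham blood library 1, where the change was 4.53 (adjusted p = 0.00135). In the other 5 fits its change was 2.52 to 3.13 and the adjusted p 0.0644 to 0.094. Cxcl10 was higher by 2.56 ± 0.72 (SE; edgeR adjusted p = 0.0418) and kept its call in 2 of 6, at 3.55 without sham blood library 1 and 2.04 without library 3. Without sham blood library 2 or any 1 brain library its adjusted p was 0.0605 to 0.131.

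The remaining CXC ligands of the mouse give a frame for these 9. Cxcl16, a membrane-bound ligand of CXCR6 that also takes up oxidized lipoproteins, was at 6.18, 7.65 and 4.75 CPM in stroke blood and 273, 277 and 235 in the brain, with no overlap (log2 fold change 5.25 ± 0.22, SE; edgeR adjusted p = 1.31e-06). Ppbp, the platelet basic protein, went the other way, from 95.7, 112 and 96.4 CPM to 0, 3.09 and 0.787 (-6.40 ± 0.80, SE; adjusted p = 0.000496). Without brain library 2 the Ppbp change was -8.07. Pf4, platelet factor 4, was at -0.72 (adjusted p = 0.0757), and at -1.03 without brain library 3 (adjusted p = 0.0298), the only fit in which it passed. The 4 platelet markers also fell, from a sum of 116 to 146 CPM in stroke blood to 2.17 to 4.77 in the brain, and their part in Ppbp was not tested. Cxcl5 and Cxcl17 stayed under 20 counts in each library and Cxcl15 had none.

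Of 8 receptor genes, 4 passed the filter between brain and stroke blood, and 2 were upregulated, against 13.1% of all genes. The median log2 fold change was 1.41 against 0.06. However, 1 of the 2, Cxcr6, had 0, 22 and 0 counts in stroke blood and passed the filter through its brain counts. The share and the median are therefore a description only. Cxcr6, the receptor of Cxcl16, was at 0, 1.02 and 0 CPM in stroke blood and 25.5, 10.0 and 13.7 in the brain (log2 fold change 5.37 ± 1.00, SE; edgeR adjusted p = 0.00384), with a value of 4.78 without stroke blood library 1 and 11.31 without library 2. Cxcr4, the receptor of Cxcl12, was at 12.9, 11.4 and 17.9 CPM in stroke blood and 85.7, 23.2 and 27.3 in the brain. Its log2 fold change of 1.52 ± 0.47 (SE; adjusted p = 0.0344) kept its call in 2 of 6 fits with a library left out and was 0.70 without brain library 1 (adjusted p = 0.0728), the library with nearly all of the Cxcl12 counts. Without stroke blood library 1, 2 or 3 the Cxcr4 change was 1.42, 1.34 and 1.73 (adjusted p = 0.122, 0.127 and 0.0716). Cxcr3, the receptor of Cxcl9, Cxcl10 and Cxcl11, was at 0.55 (adjusted p = 0.17). Cxcr2, the receptor of Cxcl1, Cxcl2 and Cxcl3, was not tested, with levels of 0.139 to 1.87 CPM in the brain and 0 to 1.44 in stroke blood. T and NK cell markers summed to 568, 1121 and 1152 CPM in the brain and 249 to 756 in stroke blood, and 1 of the 5, Cd3d, was upregulated.

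In the list of 12 NF-kappaB genes, all 12 were tested, 6 were upregulated in the brain over stroke blood (against 13.1% of all genes) and none was downregulated, with a median log2 fold change of 1.13 against 0.06 over all genes. The cytokine Il1b rose by 3.93 ± 0.30 (SE; adjusted p = 3.83e-05). Il1a, at 0, 0 and 1 counts in stroke blood, was at least 390-fold higher. It is 1 of the 6, and it passed the filter through its brain counts alone. Feedback genes of the pathway were among them: Tnfaip3, which encodes the inhibitor A20, by 3.35 (adjusted p = 4.85e-05), Nfkbiz, encoding IkappaB-zeta, by 2.06 (adjusted p = 0.000997), and Nfkbia, encoding IkappaB-alpha, by 1.12 (adjusted p = 0.00365). Nfkbia fell below the fold threshold without brain library 1 (0.88) or stroke blood library 2 (0.998). Of the subunits only Rela passed, by 1.14 (adjusted p = 0.000687). Rel, Relb, Nfkb1 and Nfkb2 were at 1.22, 0.88, -0.39 and 0.33 and were not DEGs, and neither were Tnf (1.03, adjusted p = 0.0834) and Zfp36 (0.27). Rel passed without brain library 2 (1.56) and Relb without stroke blood library 2 (1.04).

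In the list of 13 interferon genes, 12 were tested, 2 were upregulated and none was downregulated, with a median of 0.13 against 0.06 over all genes. This share of upregulated genes was near the 13.1% of all genes. Jak2, a kinase of the interferon gamma receptor, rose by 2.30 ± 0.26 (SE; adjusted p = 0.000327). Ifng itself was at 3.04, 0.696 and 0.432 CPM in stroke blood and 5.54, 7.78 and 15.0 in the brain (2.61 ± 0.70, SE; adjusted p = 0.0203). It kept its call in 3 of 6 fits with a library left out, with 3.87 without stroke blood library 1 and 2.11 to 2.24 (adjusted p = 0.072 to 0.0808) without stroke blood library 2 or 3 or brain library 3. Irf1 (0.32, adjusted p = 0.158), a transcription factor induced by interferons, was not a DEG. Irf9 (-0.61, adjusted p = 0.0248) and Ifnar1 (0.96, adjusted p = 0.0245) were below the fold threshold, which Ifnar1 crossed without brain library 1 (1.05) or stroke blood library 2 (1.29), and Ifnb1 was not tested, with at most 3 counts in a library.

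Between stroke and sham blood none of the tested genes of these 4 lists was a DEG (3 ligands, 5 receptors, 11 NF-kappaB and 12 interferon genes). Cxcl16, Cxcr5, Il1a, Il1b, Nfkb2, Irf1, Irf7, Zfp36 and Jak1 share exon bases with a gene on the opposite strand, and Ifng, Ifnar2 and Irf9 with a gene on the same strand, so that reads in the shared bases, from 4 with the partner of Jak1 to 552 with that of Cxcl16, may belong to either gene.

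**Figure D4:**
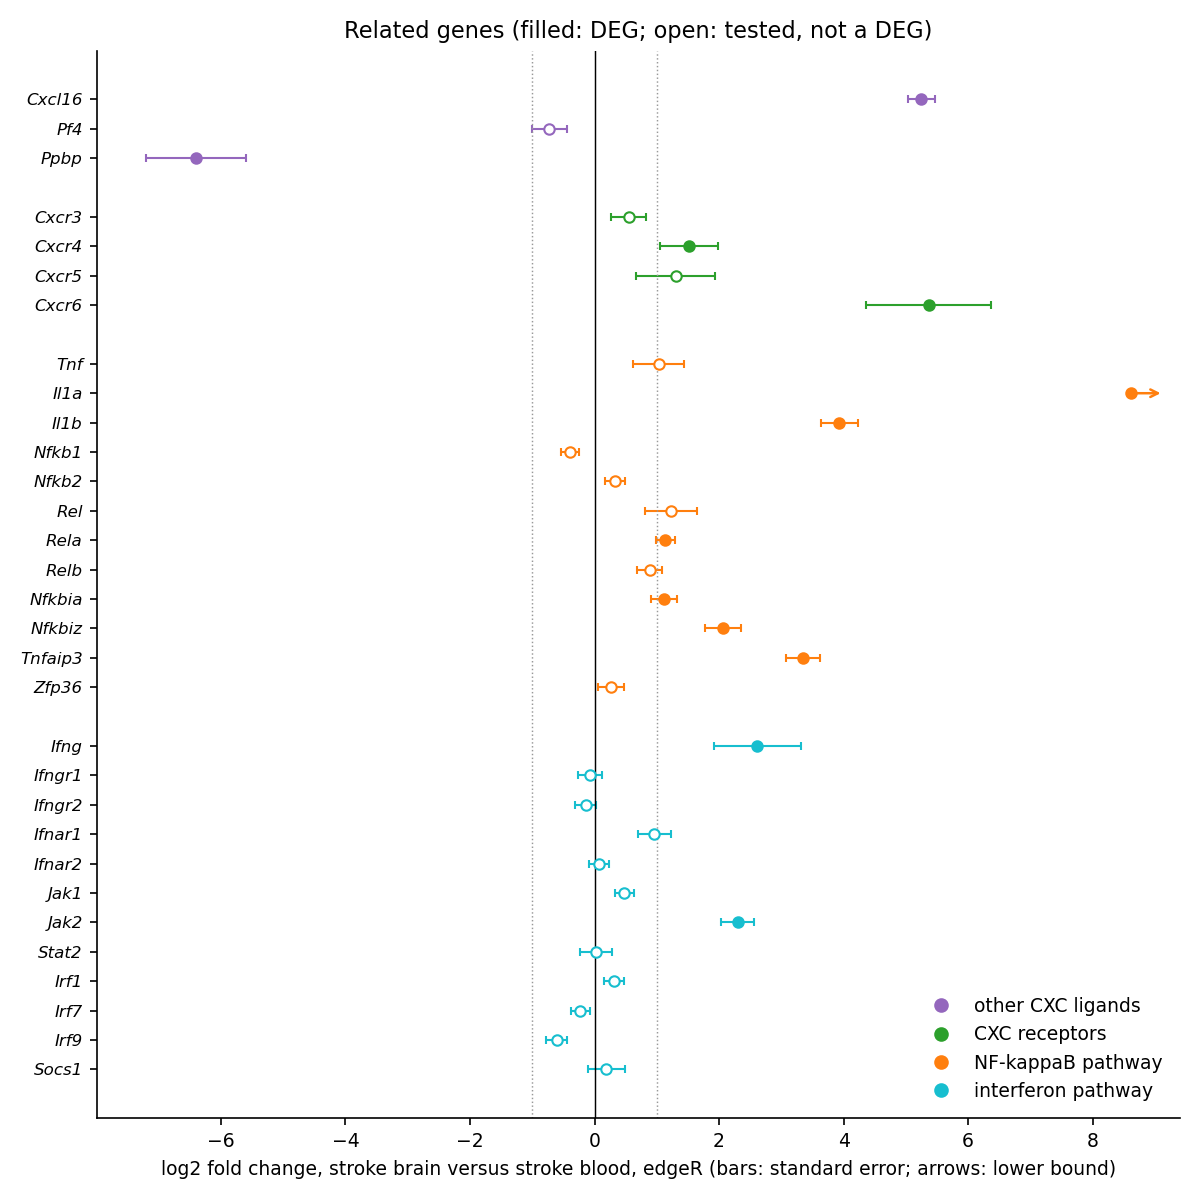
Log2 fold change between stroke brain and stroke blood (x axis; dotted lines at a change of 2-fold) of the tested genes of 4 related lists, with bars for the standard error, filled symbols for DEGs and an arrow for the lower bound of Il1a. In the NF-kappaB list 6 of 12 symbols are filled, and in the interferon list 2 of 12, Ifng and Jak2.

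Within the brain group, library 1 differed from libraries 2 and 3 in opposite directions for the CXCR2 and CXCR3 ligands. It had the highest Cxcl1 (2.93 CPM) and Cxcl2 (118 CPM) and the lowest Cxcl9, Cxcl10 and Cxcl11 (13.1, 59.4 and 0.746 CPM). The Cxcl9 value differed little from that of library 3 (13.3 CPM), and Cxcl3 did not follow this order, with 3.52, 5.30 and 1.94 CPM. Nfkbiz was at 283, 160 and 151 CPM in libraries 1, 2 and 3 and Tnfaip3 at 367, 203 and 198, and 11 of the 12 NF-kappaB genes were highest in library 1, without Zfp36. Of the 12 tested interferon genes 8 were lowest in library 1, among them Ifng, while Jak2, Irf7 and Socs1 were highest there. Library 1 also held the most fibroblast and pericyte marker signal (236 CPM) and the least microglia marker signal (1135 CPM). The share of all genes highest or lowest in library 1 was not determined. These counts therefore cannot be told apart from a difference of the whole library. The brain libraries number only 3, so this is a description and no test was made.

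The genes whose level was most like that of a ligand were found by Pearson's r of log2(CPM + 1) over the 9 libraries, among genes with a mean of at least 10 CPM. For Cxcl2 these were Nfkbiz (0.983), Ppp1r15a (0.982), a stress-response phosphatase subunit, and Slc7a11 (0.978), a cystine transporter. For Cxcl10 they were Lyar (0.960), Gbp2 (0.958), an interferon-induced GTPase, and Phf11a (0.954), and for Cxcl9 they were Rock2 (0.993), Ccdc71l (0.988) and Nab1 (0.987). For Cxcl14 they were Olfml3, Slco2b1 and Sparc (0.999 each), of which Sparc is also in the microglia list. For Cxcl1 they were Fbxo11 (0.945), Crebbp (0.943) and Itpkb (0.934), for Cxcl3 Syngr2 (0.983), Kcna3 (0.982) and Clec10a (0.977), and for Cxcl11 Cnot9 (0.987), Yaf2 (0.979) and Rrp15 (0.979). The 9 libraries share the difference between brain and blood, and Cxcl3, Cxcl11 and Cxcl14 are at or near 0 in all 6 blood libraries. For Cxcl2 the order of the 6 blood libraries was close to that of Nfkbiz, which was at 56.7, 25.7 and 14.1 CPM in sham blood and 47.5, 29.5 and 49.9 in stroke blood.

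**Figure D5:**
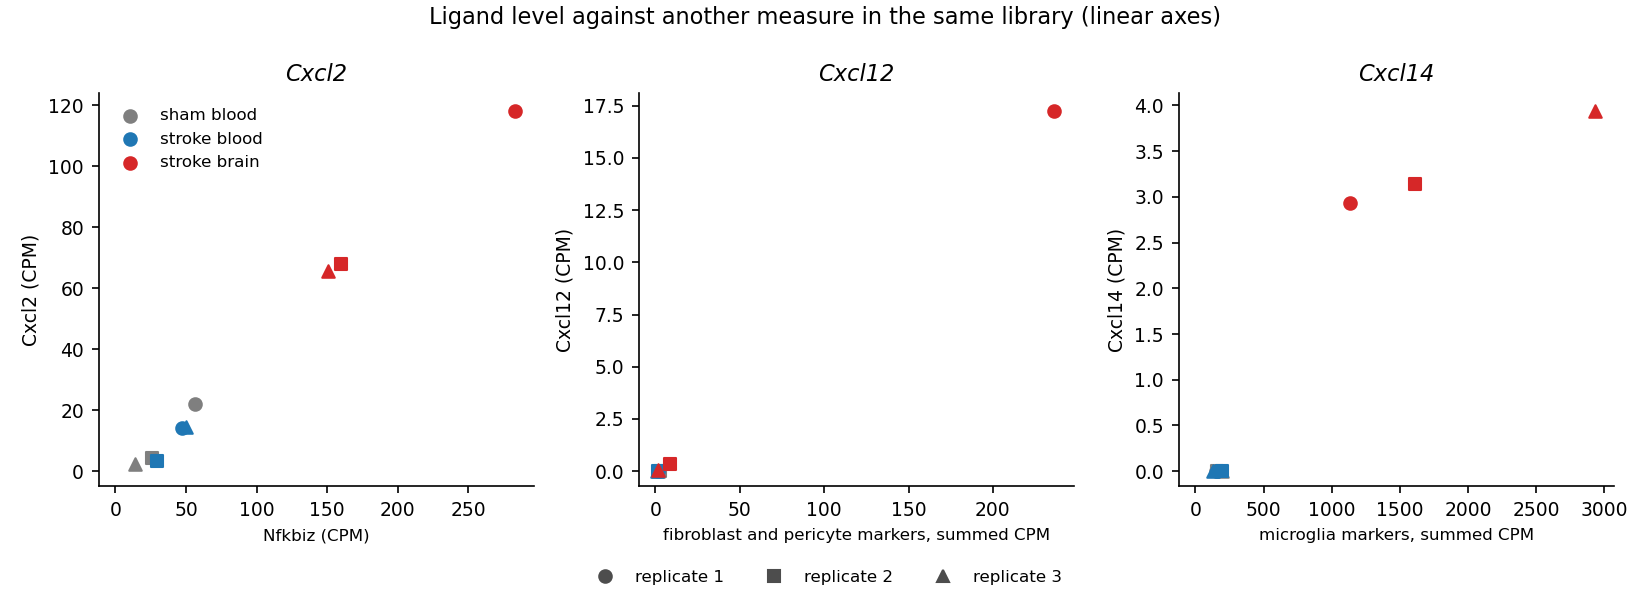
Level of Cxcl2, Cxcl12 and Cxcl14 (y axes, CPM) against that of Nfkbiz and the summed markers of fibroblasts and pericytes and of microglia (x axes, CPM) in the same library, on linear axes, with color for the group and symbol for the replicate. Cxcl2 rises with Nfkbiz in blood and in brain libraries. Cxcl12 and the fibroblast and pericyte markers are both high in brain library 1 (17.2 and 236 CPM). Cxcl14 has the same order as the summed microglia markers over the 3 brain libraries, an order not particular to microglia.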

How the data were processed

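Monocytes/macrophages sorted from 9 samples (3 sham blood, 3 stroke blood, 3 stroke brain) were grouped by the titles GEO gives them. The authors made cDNA with the SMART-Seq HT kit, sequenced it as 75-base paired ends, used HISAT2 to place the reads on GRCm38 and HTSeq to count them by gene. The deposited files hold raw, unscaled counts of 53801 Ensembl genes. Versions, the annotation release and the strand setting are not given in the sources used here. Reads that fall on overlapping genes may thus be lost or assigned to either gene. PCR copies cannot be recognized, so a floor of 3 counts allows for counting error alone. Libraries totaled 18475118 to 22623578 counts.

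Symbols and exons were taken from GENCODE M21 (53706 of the identifiers found), and promoters from RefSeq (GRCm38.p6). Genes were tested by the quasi-likelihood method of edgeR 4.0.16 (R 4.3.3) on the 2 groups compared, after TMM scaling and the default filter on low counts, with Benjamini-Hochberg adjustment over all genes tested. DEGs passed an adjusted p of 0.05 and changed by more than 1 on the log2 scale. The standard error is the log2 fold change over the square root of F. CPM used plain library totals. Where all libraries of a group had 3 counts or fewer, folds are bounds of the other group's mean CPM over the mean floor of 3 counts per library. The methods were tested on simulated data. Replicates were separate mice or pools of mice. The sources used here do not say whether same-numbered libraries shared an animal, and their deviations correlated between -0.066 and 0.065, so they were not paired.

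The ligands and all gene lists were chosen with earlier results of these data known. The genes named are the 9 ligands, the genes of 4 related lists (1 gene of the interferon list is not reported here), the marker lists by summed level, and for each ligand tested the 3 genes most like it. Alternatives were DESeq2 1.42.0, no filter, RLE, library size only, upper-quartile normalization, all 9 libraries in 1 fit, a replicate block, other thresholds, TMM-scaled CPM, the 300-base promoter window and each library left out. Marker lists of neutrophils (summed level 649 to 2503 CPM in sham blood, 429 to 515 in stroke blood and 519 to 929 in the brain, mostly Mmp8 in blood), border-associated macrophages (2653 to 3859, 1481 to 2692 and 1044 to 1249, mostly F13a1), and, for stroke blood and brain, dendritic cells (88.7 to 219, 661 to 877), endothelial cells (37.3 to 53.4, 43.9 to 60.0), astrocytes (0, 2.45 to 18.6), oligodendrocytes (187 to 323, 124 to 192) and neurons (at most 0.0483, at most 0.370) were also listed.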

Additional observations from a re-analysis of the deposited data

How the results depend on the processing

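The count of ligands called DEGs between brain and stroke blood was 5 to 7 and between brain and sham blood 4 to 7 over all settings, and 0 between stroke and sham blood in each. The numbers for the brain comparisons include Cxcl3, Cxcl11 and Cxcl14, which were tested through their brain counts alone. Cxcl2, Cxcl9 and Cxcl10 were called against stroke blood in all 6 fits with a library left out. In these settings the direction turned only for values that never passed the test. With library size only, Ifngr1 (0.079) and Ifngr2 (0.014) turned positive between brain and stroke blood, with upper-quartile normalization Ifnar2 (-0.076) and Stat2 (-0.119) turned negative, and Stat2 was -0.003 with RLE and -0.002 with all 9 libraries in 1 fit. With a library left out the ranges were -0.20 to 0.10 for Ifngr1, -0.038 to 0.168 for Ifnar2, -0.16 to 0.27 for Stat2 and -0.008 to 0.364 for Socs1 between brain and stroke blood, and -1.73 to 1.01 for Cxcl1 and -0.27 to 1.73 for Cxcl2 between stroke and sham blood.

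With the replicate block, 6, 0 and 5 ligands were called in brain versus stroke blood, stroke versus sham blood and brain versus sham blood. Under the block Stat2 was -0.014 between brain and stroke blood, Cxcl1 was -0.51 between stroke and sham blood, and Cxcl10 lost its call against sham blood (adjusted p = 0.05, edgeR).

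Over all genes, DEGs between stroke and sham blood numbered 1, against 127 with DESeq2, 160 without the filter and 0 to 16 with a library left out (16 without sham blood library 1, 2 without library 3). At an adjusted p below 0.01 they numbered 1793 in place of 2771 for brain versus stroke blood, and 792 in place of 1748 for brain versus sham blood. At an adjusted p below 0.05 and without sham blood library 3, DEGs between brain and sham blood numbered 1146. Library size only moved the median of all genes to 0.22 and 0.13 in these comparisons. Low counts limit Cxcl11, Cxcl12 and Cxcl13 most, with 1 or more brain libraries at or below 14 counts. Cxcl12 (323, 8 and 1) and Cxcl13 (0, 2 and 27) differed widely between brain libraries of similar depth, 18757650 to 22623578 counts.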
